A study of Bos taurus with 2 samples.

Results

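The trophectoderm transcription factors described here are 10 genes, GATA2, GATA3, TFAP2A, TFAP2C, GRHL1, CDX2, ELF5, DLX3, DLX5 and HAND1, chosen by symbol from the 35643 features listed for both libraries, where each symbol had 1 feature. They were followed in cattle (Bos taurus), in blastoid nuclei and in nuclei of day 8 blastocysts, each labelled wild type and each with 1 droplet single-nucleus RNA library. A blastoid is a blastocyst-like aggregate of cultured stem cells, here 8 bEPSCs, 8 bXEN cells and 16 bTSCs per microwell in medium with LIF at 20 ng/ml, activin A at 10 ng/ml, Chir99021, chroman-1, emricasan, trans-ISRIB and polyamines. The labels give no culture conditions for the embryos and no number of embryos or blastoids per library. With 1 library per group there was no replicate check and no test, so every difference below compares these libraries, and all intervals are 95% intervals that cover counting error only.

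The trophectoderm is the outer epithelium of the blastocyst, the first lineage to separate from the inner cell mass and the source of the placental trophoblast. Its regulators act as a network in which Hippo-controlled TEAD activity and Notch signalling feed GATA, AP-2 and caudal-type factors, and these activate epithelial and trophoblast genes. GATA2 and GATA3 are zinc finger factors of the early trophoblast programme, TFAP2A and TFAP2C are AP-2 factors, and GRHL1 is a grainyhead-like regulator of epithelial genes. CDX2 is the caudal homeobox factor that maintains trophectoderm identity in the mouse, and ELF5 is an ETS factor of mouse trophoblast stem cells. DLX3 and DLX5 are distal-less homeobox factors of the placenta, and HAND1 is a basic helix-loop-helix factor of differentiating trophoblast and extraembryonic mesoderm.

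After filtering, 1914 blastoid barcodes with 7481886 UMIs and 827 blastocyst barcodes with 6861558 UMIs were kept, and 1 barcode sequence occurred in both libraries. Median depth was 2008.5 UMIs per blastoid barcode and 7661 per blastocyst barcode. Nuclei of like depth, with at least 4000 UMIs, numbered 286 in blastoids, with a median of 13070 UMIs, and 688 in blastocysts, with a median of 8591.5. Clusters were formed per library without the 10 factors, and named from marker lists that hold none of them. The blastoid library gave a trophectoderm-like cluster of 154 nuclei, an unnamed cluster of 141 nuclei led by LMX1A, LDB2, NLGN1 and DCC (called DCC-high here), and 1619 shallow barcodes rich in ribosomal protein RNA with a median of 1922 UMIs. The blastocyst library gave a hypoblast-like cluster of 393, a deep trophectoderm-like cluster of 233, an epiblast-like cluster of 72 and a shallow, keratin-led cluster of 129 with a median of 2033 UMIs. The shallow cluster met the naming rule for trophectoderm. Its summed trophectoderm markers stood at 8924 CPM (a gene's share of the UMIs of a cluster, on the CPM scale). The deep trophectoderm-like cluster had 3790 CPM. The shallow cluster also carried hypoblast markers at a summed 4429 CPM, against 1483 CPM in the deep trophectoderm-like cluster. Comparisons of trophectoderm-like nuclei are therefore given with and without the shallow cluster. The epiblast-like cluster likewise carried hypoblast markers at 4935 CPM beside epiblast markers at 1750 CPM, with HNF4A in 94.4% and NANOG in 66.7% of its nuclei. The blastoid trophectoderm-like cluster met the naming rule only at its limit, with 6 trophectoderm markers against 3 epiblast and 2 hypoblast markers. Its summed markers stood at 4000 CPM for trophectoderm, 1051 CPM for hypoblast and 551 CPM for epiblast.

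In the blastocyst, GATA2, GRHL1, TFAP2A and CDX2 were concentrated in the deep trophectoderm-like cluster, whereas GATA3 and above all TFAP2C were also present in hypoblast-like and epiblast-like nuclei. In the blastoid, the trophectoderm-like cluster held the highest level of GATA2, GATA3, TFAP2A, TFAP2C, GRHL1 and ELF5, while CDX2 was highest in the shallow ribosomal-rich barcodes. The TFAP2C interval there (38.5 to 56.2 CPM) overlaps that of the ribosomal-rich barcodes (33.5 to 47.8 CPM). A cluster against the rest is given as a description, since the clusters were formed from other genes of the same nuclei.

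GATA2 in the blastocyst measured 480 CPM (452 to 509) in the deep trophectoderm-like cluster, 96.6 CPM in the shallow one, 6.96 CPM in hypoblast-like and 5.31 CPM in epiblast-like nuclei. In the blastoid it measured 335 CPM (313 to 359) in the trophectoderm-like cluster, 47.9 CPM in the DCC-high cluster and 141 CPM in the ribosomal-rich barcodes. The deep trophectoderm-like cluster thus held 93.7% of all blastocyst GATA2 UMIs, and the blastoid trophectoderm-like cluster 60.1% of the blastoid ones. The level in deep trophectoderm-like nuclei was 72.2-fold (49.3 to 110) that of the hypoblast-like and epiblast-like nuclei together in the embryo, and 7.00-fold (5.63 to 8.79) that of the DCC-high nuclei in the blastoid. These reference nuclei are of different kinds in the 2 libraries.

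GATA3 showed a smaller contrast in the embryo. It measured 215 CPM in deep trophectoderm-like, 98.6 CPM in shallow trophectoderm-like, 36.0 CPM in hypoblast-like and 18.6 CPM in epiblast-like nuclei of the blastocyst, and 175, 24.2 and 58.2 CPM in the trophectoderm-like, DCC-high and ribosomal-rich barcodes of the blastoid. The ratio of trophectoderm-like to other deep nuclei was 6.55 (5.40 to 8.00) in the blastocyst and 7.24 (5.33 to 10.0) in the blastoid. Hypoblast-like nuclei held 517 GATA3 UMIs per 100 GATA2 UMIs (329 to 848), against 44.7 (40.1 to 49.8) in the deep trophectoderm-like cluster, so the GATA3 counts of the hypoblast-like nuclei did not keep the trophectoderm-like proportion of these factors.

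The AP-2 factors differed in where they were found. TFAP2A had 67 UMIs (29.1 CPM) in the deep trophectoderm-like cluster of the blastocyst, 4 UMIs in the shallow one, 1 UMI among hypoblast-like nuclei and 0 among epiblast-like nuclei, with an upper Poisson bound of 4.89 CPM there. In the blastoid its level was 71.9 CPM (61.6 to 83.4) in trophectoderm-like nuclei, 12.6 CPM in DCC-high nuclei and 26.2 CPM in ribosomal-rich barcodes. TFAP2C was spread over the embryo, with 82.8 CPM in deep trophectoderm-like, 82.5 CPM in shallow trophectoderm-like, 47.8 CPM in hypoblast-like and 51.7 CPM in epiblast-like nuclei. Only 44.5% of its blastocyst UMIs came from the deep trophectoderm-like cluster and 36.8% came from the hypoblast-like one. In the blastoid TFAP2C measured 46.7 CPM in trophectoderm-like nuclei, 9.48 CPM in DCC-high nuclei and 40.1 CPM in ribosomal-rich barcodes. Its ratio of trophectoderm-like to other deep nuclei was 1.71 (1.39 to 2.09) in the blastocyst and 4.93 (2.98 to 8.62) in the blastoid.

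GRHL1 followed GATA2 in its order over blastocyst clusters, with 426 CPM in deep trophectoderm-like, 147 CPM in shallow trophectoderm-like, 26.6 CPM in hypoblast-like and 22.6 CPM in epiblast-like nuclei. Its values of 477, 91.6 and 197 CPM in trophectoderm-like, DCC-high and ribosomal-rich barcodes of the blastoid gave a trophectoderm-like to DCC-high ratio of 5.20 (4.43 to 6.14), against 16.5 (13.4 to 20.3) for the corresponding ratio in the embryo.

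CDX2 was low in the inner lineages of the embryo and had most of its blastoid UMIs outside the trophectoderm-like cluster. It measured 23.9 CPM (55 UMIs) in deep trophectoderm-like, 14.1 CPM in shallow trophectoderm-like and 1.82 CPM in hypoblast-like nuclei of the blastocyst, and had 0 UMIs in epiblast-like nuclei. In the blastoid it measured 36.8 CPM (29.5 to 45.3) in trophectoderm-like nuclei, 12.6 CPM in DCC-high nuclei and 58.8 CPM (50.7 to 67.9) in ribosomal-rich barcodes. These shallow barcodes held 62.2% of the blastoid CDX2 UMIs, against 42.3% of all blastoid UMIs and 33.1% of GATA2 UMIs. The shares of TFAP2C (49.2%), DLX3 (53.1%), DLX5 (56.0%) and HAND1 (81.3%) also stood above that of all UMIs, and those of GATA3 (28.1%), TFAP2A (29.5%), GRHL1 (31.9%) and ELF5 (20.0%) below it. Per 100 GATA2 UMIs, CDX2 had between 8.72 and 13.7 (89 against 811 UMIs) in trophectoderm-like nuclei, 26.4 (16.1 to 41.7) in DCC-high nuclei and 41.6 (34.9 to 49.5) in ribosomal-rich barcodes. GATA3 per 100 GATA2 UMIs was by contrast 52.3, 50.5 and 41.2 in the same clusters. The CDX2 intervals of trophectoderm-like and ribosomal-rich barcodes do not overlap. By depth, CDX2 in the blastoid stood at 49.4 CPM in the 941 barcodes under 2000 UMIs, at 68.3 CPM (56.0 to 82.4) in the 687 from 2000 to under 4000, and at 44.1, 26.4 and 23.5 CPM (17.8 to 30.4) in the 49, 134 and 103 nuclei of the deeper steps that begin at 4000, 8000 and 16000 UMIs. GATA2 stood at 161, 121, 145, 220 and 211 CPM over the same steps. In the pools from 8000 UMIs CDX2 was thus lower, and GATA2 higher, than in those under 4000. The pools from 4000 UMIs mix trophectoderm-like and DCC-high nuclei. Between these clusters CDX2 was higher where GATA2 was, with a trophectoderm-like to DCC-high ratio of 2.91 (1.84 to 4.78). The ribosomal-rich barcodes summed trophectoderm markers to 13744 CPM and hypoblast markers to 2930 CPM, with APOA2 among their leading genes, and whether they are nuclei or free RNA was not tested.

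The remaining factors were sparse. ELF5 had 36 UMIs (14.9 CPM) in blastoid trophectoderm-like nuclei, 12 each in DCC-high and ribosomal-rich barcodes, and only 15 UMIs in the whole blastocyst library, of which 4 were in deep trophectoderm-like and 9 in hypoblast-like nuclei. DLX3 measured 10.7 CPM in both the trophectoderm-like and the ribosomal-rich barcodes of the blastoid and 5.21 CPM (12 UMIs) in deep trophectoderm-like nuclei of the embryo. DLX5 had 25 blastoid and 5 blastocyst UMIs. HAND1 had 16 and 1, with 13 of the 16 in ribosomal-rich barcodes, and is barely measured at this depth.

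**Figure D1:**
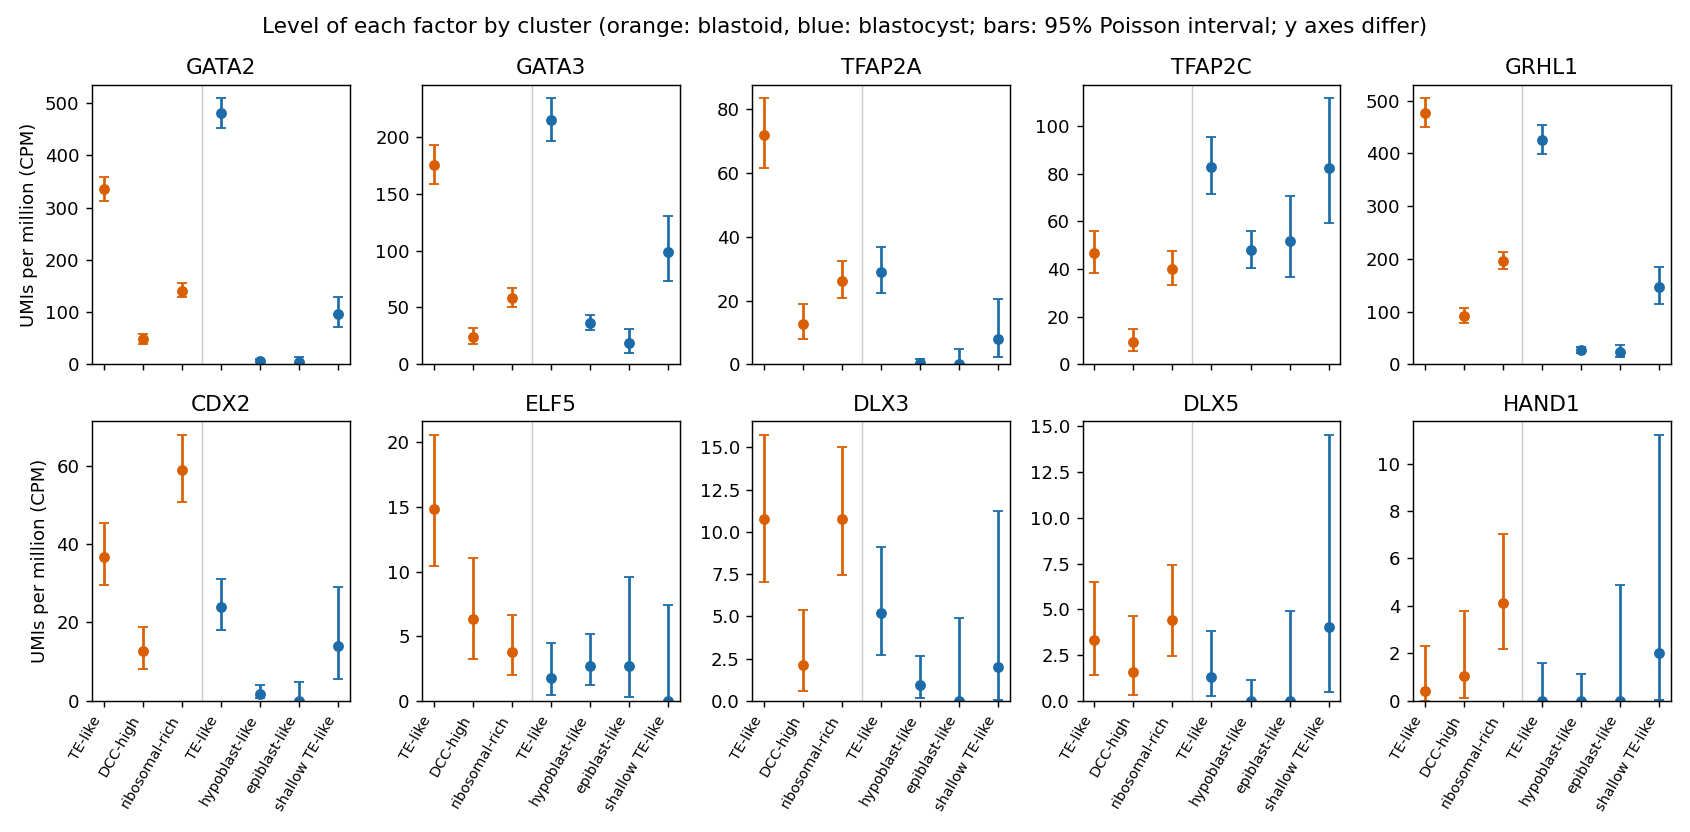
Level of each factor in CPM (y axis, linear and different for each panel) in 3 blastoid clusters (orange) and 4 blastocyst clusters (blue), with exact 95% Poisson intervals. GATA2 stands at 480 CPM in blastocyst TE-like (trophectoderm-like) nuclei and under 7 CPM in hypoblast-like and epiblast-like nuclei, TFAP2C lies between 47.8 and 82.8 CPM in every blastocyst cluster, and CDX2 is highest in the ribosomal-rich blastoid barcodes.

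Across nuclei of like depth, 4 of the 8 factors with at least 20 UMIs in both sums together were more than 2-fold higher in the blastoid, where 19.9% of 16115 genes were, and 1 factor was more than 2-fold lower, where 14.8% of genes were. The higher factors were TFAP2A, CDX2, ELF5 and DLX3, and the lower one was TFAP2C. The median log2 ratio of the 8 factors was 1.13, against 0.03 for all genes tested. ELF5 and DLX3, with 13 and 15 blastocyst UMIs, reached the minimum only with the UMIs of the source in which they were high. Because the minimum was set on both sums together, the counts and medians of these factors and of the gene lists, in every comparison, are a description and support no statement about the factors as a group. This sum mixes clusters in different shares: trophectoderm-like nuclei made up 51.4% of blastoid nuclei of like depth, against 32.3% (deep) and 5.38% (shallow) in the blastocyst. Summed hypoblast markers were at 1086 CPM in the blastoid and 5249 CPM in the blastocyst, with TTR, AFP and APOB at 0 in the blastocyst, and summed neural markers at 2916 and 182 CPM, with SOX1 at 0 in both and NEUROD1 at 0 in the blastocyst.

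TFAP2A was at 45.8 CPM (197 UMIs) in blastoid and 10.5 CPM (69 UMIs) in blastocyst nuclei of like depth, a ratio of 4.37 (3.30 to 5.83). CDX2 was at 26.0 and 9.73 CPM, a ratio of 2.68 (1.95 to 3.70). ELF5 had 48 and 13 UMIs, a ratio of 5.65 (3.01 to 11.4), and DLX3 30 and 15 UMIs, a ratio of 3.06 (1.60 to 6.12). The lower bounds for CDX2 and DLX3 lie under 2-fold, so within counting error their ratios need not be past that line.

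GRHL1 was at 307 and 171 CPM, a ratio of 1.80 (1.66 to 1.95). GATA2 was at 209 and 174 CPM, a ratio of 1.20 (1.10 to 1.32), and GATA3 at 108 and 98.4 CPM, a ratio of 1.10 whose interval (0.974 to 1.24) includes 1. TFAP2C was lower in the blastoid, at 30.5 against 61.6 CPM, with a blastoid to blastocyst ratio of 0.495 (0.403 to 0.604). Its ratio lies at the 2-fold line, and it was not past it when ribosomal protein and mitochondrial genes were left out of the denominator, when nuclei from 2000 UMIs were admitted, or when sums were thinned. DLX5, with 11 and 4 UMIs, and HAND1, with 3 and 0, fell under the 20 UMI minimum.

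Over the whole libraries, 5 of the 9 factors with enough UMIs were more than 2-fold higher in the blastoid and 0 were more than 2-fold lower, against 23.2% and 20% of 16904 genes. DLX5 joined TFAP2A, CDX2, ELF5 and DLX3 there, of which DLX5, ELF5 and DLX3, with 5, 15 and 16 blastocyst UMIs, passed the minimum only through the blastoid. The CDX2 ratio was 4.03 (3.09 to 5.33). This sum includes the ribosomal-rich barcodes, and its median over genes with at least 100 UMIs was shifted by -0.25 on the log2 scale, against -0.01 at like depth. The whole-library log2 ratio of GATA3, -0.17, became 0.07 when scaled by that median.

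Between trophectoderm-like clusters, 3 of 8 factors were more than 2-fold higher in the blastoid, where 15.9% of 13219 genes were, and 0 were more than 2-fold lower, where 13.9% of genes were. TFAP2A, ELF5 and DLX3 made up the 3, and the same 3 stood past 2-fold without the shallow blastocyst cluster, where ELF5 and DLX3 again passed the minimum only through the blastoid. Without that cluster 18.6% of 12822 genes were higher and 12.9% lower. The median log2 ratio of the factors was 0.54 with and 0.39 without that cluster, against 0.00 and 0.08 for all genes tested.

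Within these nuclei GATA2 was lower in the blastoid than in the embryo, the opposite of its like-depth sum. Its ratio was 0.813 (0.743 to 0.891) with the shallow cluster and 0.698 (0.637 to 0.765) without it, where 335 CPM stood against 480 CPM. GATA3 had a ratio of 0.903 (0.793 to 1.03) with and 0.816 (0.715 to 0.931) without it, so that its interval excludes 1 only when the shallow cluster is left out. GRHL1 stayed slightly higher, at 1.27 (1.16 to 1.38) and 1.12 (1.03 to 1.22). TFAP2C stayed lower, at 0.564 in both.

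TFAP2A remained higher in blastoid trophectoderm-like nuclei, with a ratio of 2.84 (2.14 to 3.80) with and 2.48 (1.86 to 3.33) without the shallow cluster. ELF5 had 36 UMIs against 4, a ratio of 10.4 (3.74 to 40.3) with and 8.58 (3.07 to 33.2) without it. DLX3 had 26 UMIs against 13 or 12, and its ratios of 2.32 (1.15 to 4.91) and 2.06 (1.01 to 4.49) have lower bounds close to 1. The CDX2 ratio was 1.66 (1.19 to 2.34) and 1.54 (1.09 to 2.20), smaller than its like-depth and whole-library ratios. DLX5 had 8 UMIs against 5, and HAND1 had 1 against 1.

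**Figure D2:**
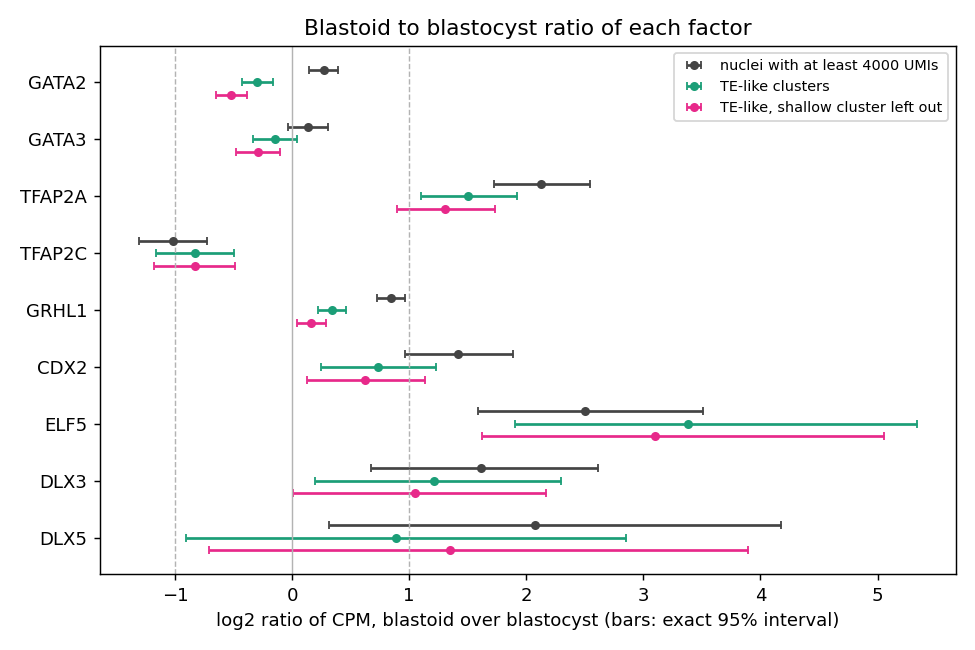
Log2 ratio of CPM, blastoid over blastocyst (x axis), for 9 factors (y axis) in nuclei with at least 4000 UMIs (grey), in TE-like (trophectoderm-like) clusters (green) and in TE-like clusters without the shallow blastocyst cluster (pink), with exact 95% intervals and dashed lines at 2-fold. GATA2 lies at 0.27 over nuclei of like depth and at -0.30 and -0.52 between trophectoderm-like clusters, while TFAP2A lies above 1 in each.

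Detection, the share of nuclei with at least 1 UMI, was compared after thinning every nucleus of like depth to 4000 UMIs. GATA2 was detected in 41.3% of blastoid and 27.9% of blastocyst nuclei, and unthinned in 61.9% and 34.6%. GRHL1 was detected in 53.5% and 32.0% (unthinned 68.2% and 43.8%), and GATA3 in 26.2% and 22.5% (unthinned 52.8% and 36.2%). The order for GATA3 turned, at 12.9% of 973 blastoid and 16.1% of 753 blastocyst barcodes, when barcodes from 2000 UMIs were admitted and thinned to 2000, which changed the depth and the set of barcodes together, and by a smaller margin when doublet scores were not used. TFAP2A stood at 12.9% (9.27 to 17.4) in the blastoid and 2.91% (1.78 to 4.45) in the blastocyst (unthinned 34.6% and 7.12%), and CDX2 in 10.5% and 3.49% (unthinned 27.6% and 7.0%). TFAP2C again went the other way, with 12.2% (8.67 to 16.6) and 19.8% (16.9 to 22.9) of nuclei (unthinned 30.4% and 37.4%). ELF5 was detected in 4.20% and 0.872%, DLX3 in 1.75% and 1.02%, and DLX5 in 1 nucleus of each library. HAND1 was detected in 0 nuclei of either, with upper bounds of 1.28% of blastoid and 0.535% of blastocyst nuclei with a UMI at this depth, and unthinned in 1.05% of the blastoid nuclei. These sparse shares moved with another random seed for the thinning. ELF5 then stood at 4.55% of blastoid and 0.291% of blastocyst nuclei, and DLX3 at 3.15% and 1.16%.

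In trophectoderm-like nuclei, 147 in the blastoid and 222 in the deep blastocyst cluster, the commonest factors were GATA2 and GRHL1. GATA2 was detected in 68.0% (59.8 to 75.5) and 79.7% (73.8 to 84.8), GRHL1 in 83.7% (76.7 to 89.3) and 77.0% (70.9 to 82.4), and GATA3 in 44.9% and 48.6%. The intervals of each of these pairs overlap. TFAP2A stood at 21.1% (14.8 to 28.6) and 9.01% (5.59 to 13.6), and ELF5 at 6.12% (2.84 to 11.3) and 0.450% (0.0114 to 2.48), pairs whose intervals do not overlap. CDX2 was detected in 15.0% (9.62 to 21.8) and 9.46% (5.95 to 14.1), and TFAP2C in 19.0% and 25.2%, both with overlapping intervals.

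Nuclei outside these clusters, 139 DCC-high nuclei at a median of 11063 UMIs and 429 hypoblast-like and epiblast-like nuclei at 8566, serve as the comparison within each library. They are other cell types and not empty droplets, so their shares can hold expression as well as free RNA. TFAP2A was detected in 4.32% (1.60 to 9.16) of the blastoid ones and in 0 of 429 blastocyst ones (upper bound 0.856%), of which 0.233% had a UMI unthinned. GATA2 was detected in 12.9% and 2.33%, GRHL1 in 21.6% and 9.09%, and CDX2 in 5.76% and 0.699%. GATA3 stood at 6.47% and 9.56%, and TFAP2C at 5.04% (2.05 to 10.1) and 17.0% (13.6 to 20.9), higher in the embryo. The trophectoderm-like shares of GATA2, GATA3, TFAP2A and GRHL1 stood above these shares in both libraries, with no overlap of intervals. How many of all genes stood apart in this way, here or between the libraries, was not counted. The intervals of TFAP2C in the blastocyst and of CDX2 in the blastoid overlap those of the other nuclei, and ELF5, at 2.16% of DCC-high and 1.17% of the other blastocyst nuclei, did not stand clear of them in either library.

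**Figure D3:**
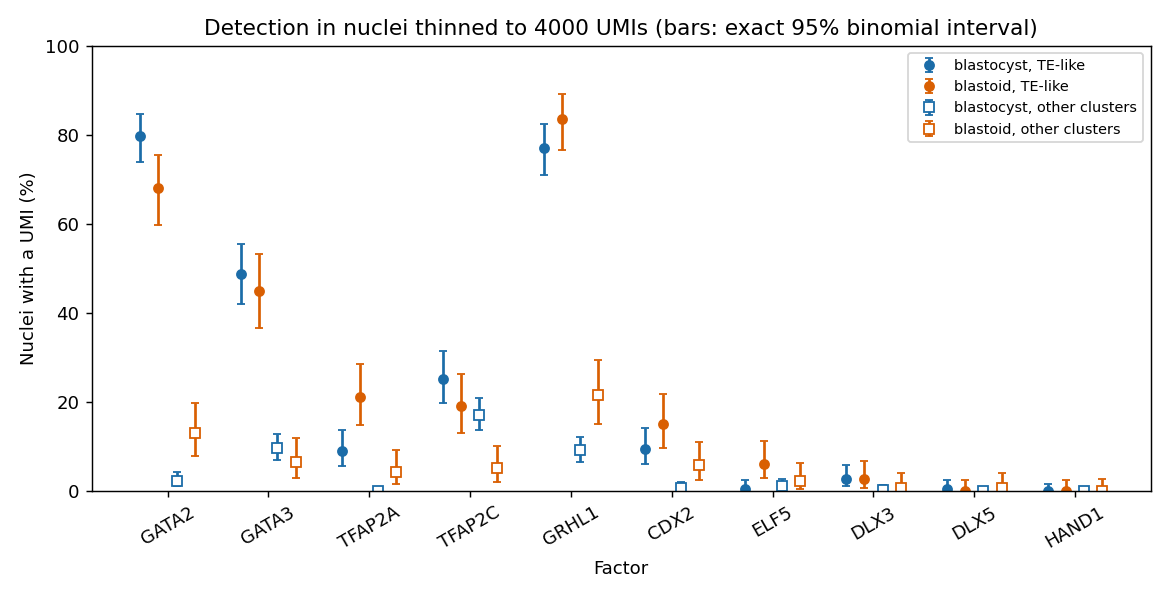
Share of nuclei with at least 1 UMI of each factor (y axis, %) after thinning to 4000 UMIs, in TE-like (trophectoderm-like; filled) and other (open) nuclei of the blastocyst (blue) and blastoid (orange), with exact 95% binomial intervals. TFAP2A lies at 21.1% in blastoid and 9.01% in blastocyst TE-like nuclei, and TFAP2C in the blastocyst lies at 25.2% in TE-like and 17.0% in other nuclei.

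The number of factors seen in 1 nucleus had overlapping intervals in trophectoderm-like nuclei of both sources. At 4000 UMIs, 3 or more of the 10 factors had UMIs in 59.2% (50.8 to 67.2) of these nuclei in the blastoid and in 53.6% (46.8 to 60.3) in the blastocyst, with a mean of 2.61 and 2.53 factors. The most in any nucleus was 5 in the blastoid and 6 in the blastocyst, and 4.08% and 2.25% held none. Over all nuclei of like depth, 3 or more were seen in 31.8% (26.5 to 37.6) in the blastoid and 17.9% (15.1 to 20.9) in the blastocyst. At 2000 UMIs this order turned, with 6.17% of 973 blastoid and 8.76% of 753 blastocyst barcodes, a depth that also admits 683 ribosomal-rich barcodes. Outside the trophectoderm-like clusters 4 of 139 blastoid nuclei (2.88%) held 3 or more factors, and 0 of 429 blastocyst nuclei did.

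**Figure D4:**
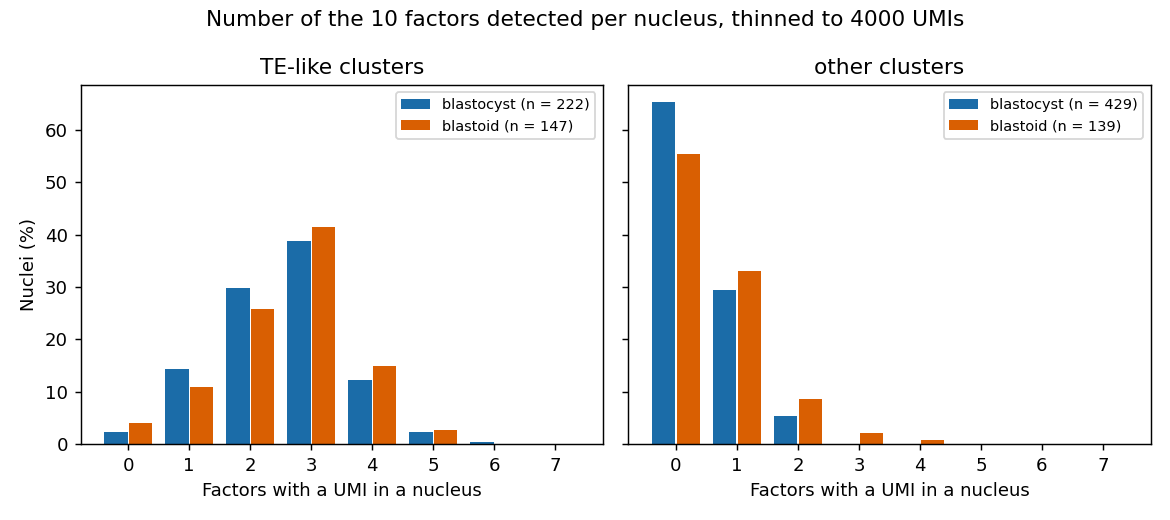
Share of nuclei (y axis, %) by the number of the 10 factors with a UMI (x axis) after thinning to 4000 UMIs, in TE-like (trophectoderm-like; left) and other (right) clusters of the blastocyst (blue) and blastoid (orange). In TE-like nuclei both sources peak at 3 factors, at 38.7% of blastocyst and 41.5% of blastoid nuclei.

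GATA2 and GATA3 were detected together in 48 of 286 blastoid nuclei, where the product of their shares gives 30.9, and in 89 of 688 blastocyst nuclei, where it gives 43.3. The observed number was thus 1.55 and 2.06 times the product. Inside trophectoderm-like nuclei it was 46 against 44.9 in the blastoid and 87 against 86.1 in the blastocyst, ratios of 1.02 and 1.01. Within the cluster the observed number was thus close to the product. GATA2 and GRHL1 behaved alike, with phi coefficients, the correlation of presence over nuclei, of 0.43 (n = 286) and 0.55 (n = 688) over all nuclei and of 0.09 (n = 147) and 0.02 (n = 222) in trophectoderm-like ones. Of 15 pairs among the 6 factors seen in at least 20 nuclei, 5 in the blastoid and 10 in the blastocyst exceeded 1.5 times the product over all nuclei. Within trophectoderm-like nuclei 0 of the 15 did in either library. Pairs of other genes were not counted, so these counts are a description and support no statement about the factors. Among these 15 pairs, the highest coefficient within trophectoderm-like nuclei was 0.21, for GATA3 with GRHL1 in the blastoid, with 61 nuclei against 55.2 from the product, and the same pair had 0.06 in the blastocyst. These nuclei share a library and a thinned depth, and weak coefficients in such sparse counts are not read as associations.

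TFAP2C was often seen without the others in the embryo. It occurred with GATA2 in 1.13 times the number from the product of their shares there, and 60 of the 136 blastocyst nuclei with a TFAP2C UMI (44.1%, 35.6 to 52.9) held none of the other 9 factors. In the blastoid 3 of 35 (8.57%, 1.80 to 23.1) did. Of the nuclei with a TFAP2C UMI, 41.2% were in the deep trophectoderm-like cluster in the blastocyst and 80.0% in the blastoid. The shares alone thus come from unlike mixtures of clusters. GATA3 stood alone in 37 of 155 blastocyst nuclei (23.9%) and 3 of 75 blastoid nuclei (4.0%). Of these 155 and 75 nuclei, 69.7% and 88.0% were in the deep trophectoderm-like cluster. All 20 blastocyst nuclei with a TFAP2A UMI held another factor and lay in the trophectoderm-like cluster. TFAP2A and CDX2 were seen together in 2 blastoid nuclei, where the product gives 3.88, and in 1 blastocyst nucleus, where it gives 0.698, counts too low to read.

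**Figure D5:**
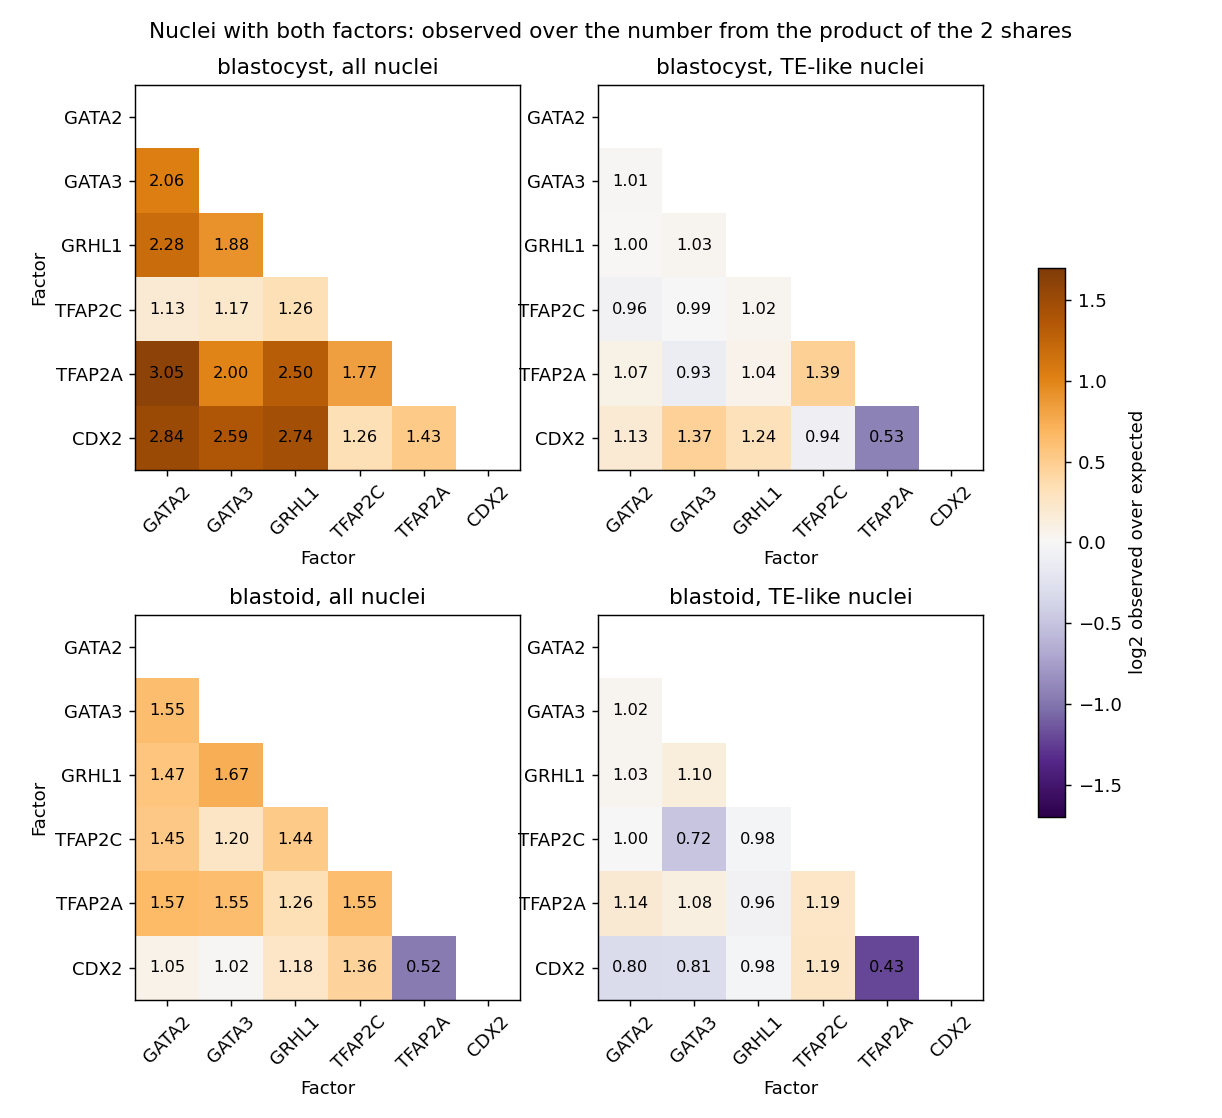
Number of nuclei with UMIs of both factors over the number from the product of their shares, for 6 factors on both axes (value printed in each cell, colour on a log2 scale), in all nuclei of like depth (left) and TE-like (trophectoderm-like) nuclei (right) of the blastocyst (top) and blastoid (bottom). GATA2 with GATA3 is at 2.06 and 1.55 over all nuclei and at 1.01 and 1.02 in TE-like nuclei, and cells with CDX2 or TFAP2A rest on few nuclei.

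Counts also varied within trophectoderm-like nuclei. GATA2 ranged from 0 to 9 UMIs per nucleus thinned to 4000 UMIs in both sources, with medians of 1 in the blastoid and 2 in the blastocyst and Fano factors, the variance over the mean, of 1.34 and 1.48. GRHL1 ranged from 0 to 7 UMIs with a Fano factor of 1.28 in the blastoid and from 0 to 6 with 1.12 in the blastocyst. TFAP2C had Fano factors of 0.878 and 0.997, near the value of 1 that Poisson counting gives.

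Factors listed as regulators of the other lineages were also counted in nuclei with and without these factors. GATA6, a hypoblast factor, was detected in 84.7% (79.2 to 89.2) of blastocyst nuclei with 2 or more of the 10 factors and in 85.3% of those with none. In the blastoid it was detected in 29.8% (22.4 to 38.1) of nuclei with 2 or more and 7.23% (2.70 to 15.1) of those with none. HNF4A, an endoderm factor, went with the absence of the 10 factors in the embryo, at 77.5% of nuclei with none and 9.26% of those with 2 or more. In the blastoid it was detected in 4.82% of nuclei with none and in 0 of 141 with 2 or more. ESRRB, a pluripotency-associated nuclear receptor, was found in 52.8% of blastocyst nuclei with 2 or more factors and 43.1% of those with none, and in 21.3% and 4.82% in the blastoid. PRDM14, an epiblast factor, was found in 21.2% of blastocyst nuclei with none and 3.24% of those with 2 or more, and NANOG in 10.5% and 2.78%. SOX2, a pluripotency factor, was found in 9.80% of blastocyst nuclei with none and 3.70% of those with 2 or more, and in 20.5% and 6.38% in the blastoid. SALL4 was found in 102 of 306 and 54 of 216 of the same blastocyst nuclei and in 22.9% and 17.7% of the blastoid ones, and TFCP2L1 in 39.9% and 54.6% and in 1.20% and 8.51%. All these shares are from nuclei thinned to 4000 UMIs, at which PRDM14 and NANOG had no UMI in the blastoid. Unthinned, NANOG had 1 UMI in the blastoid trophectoderm-like cluster, 5 in the DCC-high cluster and 10 in ribosomal-rich barcodes.

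Of 21 paralogs of the factors, 13 had enough UMIs at like depth, of which 3 (CDX4, ELF3 and EHF) were more than 2-fold higher and 6 (GATA1, GATA4, GATA5, GATA6, ELF2 and ELF4) more than 2-fold lower in the blastoid, where 19.9% and 14.8% of all genes were. Their median log2 ratio was -0.26, against 0.03 for all genes. Between trophectoderm-like nuclei 10 paralogs had enough UMIs, of which 2 (CDX4 and EHF) were more than 2-fold higher and 2 (GATA6 and ELF4) more than 2-fold lower in the blastoid, where 15.9% and 13.9% of all genes were, and their median log2 ratio was -0.40. GRHL2, the grainyhead-like paralog of GRHL1, was at 120 CPM in blastoid and 205 CPM in blastocyst trophectoderm-like nuclei, a ratio of 0.586 (0.507 to 0.676), where GRHL1 was slightly higher. ELF1 and ELF2, ETS paralogs of ELF5, had ratios of 1.12 (0.983 to 1.28) and 0.695 (0.572 to 0.843) there. GATA6 was at 105 against 552 CPM in trophectoderm-like nuclei.

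Among the 13 tested of 16 listed Hippo and Notch inputs between trophectoderm-like clusters, 1 (TEAD2) was more than 2-fold higher and 1 (WWTR1) more than 2-fold lower in the blastoid, where 15.9% and 13.9% of all genes were. Their median log2 ratio was -0.41, against 0.00 for all genes. WWTR1, the TAZ coactivator of TEAD factors and also a naming marker of the blastoid cluster, was at 90.9 CPM against 425 CPM, a ratio of 0.214 (0.184 to 0.247). YAP1, its partner coactivator, was at 393 and 407 CPM (0.966, 0.885 to 1.05). TEAD1 was at 445 and 666 CPM (0.669, 0.620 to 0.721), and RBPJ, the DNA-binding effector of Notch, at 244 and 450 CPM (0.542, 0.491 to 0.598).

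Of 14 trophoblast products with a symbol here, 11 were tested between trophectoderm-like clusters. TKDP4 and SSLP1 were more than 2-fold higher in the blastoid and the steroidogenic genes HSD3B1, CYP11A1 and CYP19A1 more than 2-fold lower, where 15.9% and 13.9% of all genes were. The median log2 ratio of the 11 was 0.15. Of these genes HSD3B1 was a naming marker of the blastoid cluster and the deep blastocyst cluster, KRT8, KRT18 and PTGS2 of both blastocyst clusters, and KRT7 and KRT19 of the shallow one. The simple epithelial keratins depended on the shallow blastocyst cluster: the log2 ratio of KRT18 was -0.05 with and 0.62 without it, and that of KRT8 was -0.20 with and 0.37 without it. KRT19 was at 0.66 and 1.43. PTGS2, the prostaglandin synthase of trophoblast, had log2 ratios of 0.15 and 0.17.

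Of 8 tested factors of other lineages, 0 were more than 2-fold higher and 6 (GATA6, HNF4A, SALL4, KLF4, ESRRB and TFCP2L1) more than 2-fold lower in blastoid trophectoderm-like nuclei, where 15.9% and 13.9% of all genes were. Their median log2 ratio was -1.98. HNF4A, at -2.98, moved to -0.75 without the shallow cluster.

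The genes whose counts followed the summed count of the 10 factors most closely were ranked by Pearson r of log2(count + 1) over thinned nuclei. Nuclei of all clusters were pooled, so r does not separate differences between clusters from those within one. No r within a cluster was computed. LRP2, the endocytic receptor megalin, was among the leading 5 in both libraries. In the blastoid they included LRP2 (0.73), MFAP5 (0.70), MYO1D (0.69) and DOCK9 (0.66), among 8453 genes over 286 nuclei. In the blastocyst they were GCNT1 (0.75), SLC1A1 (0.74), PLS1 (0.74), LRP2 (0.71) and DAB2 (0.68), among 7933 genes over 688 nuclei. In the other library r was 0.64 for DAB2, 0.59 for PLS1, 0.50 for GCNT1, 0.44 for MFAP5, 0.39 for MYO1D, 0.26 for SLC1A1 and 0.03 for DOCK9. LRP2 was at 3616 CPM in blastoid and 3161 CPM in deep blastocyst trophectoderm-like nuclei, and SLC1A1 at 193 and 1564 CPM.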

How the data were processed

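The authors deposited unnormalized UMI counts for every gene in each barcode. The file headers name Cell Ranger 7.2.0, and the submitters' processing notes Cell Ranger 7.1.0 and Seurat 4.3.0. The genome build, annotation, cell calling, strand and intron settings are not given in the sources used here. Barcodes with at least 500 genes and under 10% of UMIs from 13 mitochondrial genes were kept, and the highest Scrublet scores were removed at 0.8% per 1000 barcodes (30 blastoid, 6 blastocyst). Counts were clustered with scanpy 1.11.5 and leidenalg 0.10.2 (2000 variable genes, 30 components, 15 neighbours, resolution 0.5). A cluster was named from at least 3 markers with at least 100 UMIs and 1.5 times the CPM of the other clusters, and at least 2 times as many as any other class. Over 5% ribosomal protein UMIs gave the name ribosomal-rich. Ratios of UMI sums carry exact conditional 95% intervals, shares exact binomial (Clopper-Pearson) and levels exact Poisson intervals. Genes needed 20 UMIs in the 2 sums, and counts under 3 were set to 3 in medians. Upper bounds for 0 nuclei are those of the exact binomial interval.

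Named genes are the 10 factors, up to 4 genes per list with most UMIs, and the 5 genes per library most like the factors' sum among those detected in at least 5% of nuclei, of which 1 is not reported here; genes named in counts are all members past 2-fold. The members and lists were chosen with earlier results of these data known. On simulated counts for the like-depth comparison (16115 genes), 97% of 200 genes changed 4-fold passed 2-fold, and 1.64% of unchanged genes did. Of the intervals, 95.9% held the true ratio. This checks the calculation and does not bear on variation between libraries. The comparison without the shallow cluster was added after seeing the data.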

Additional observations from a re-analysis of the deposited data

How the results depend on the processing

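The counts of factors more than 2-fold higher stayed within 1.5 times their value under every setting run, at like depth, between trophectoderm-like clusters and over whole libraries. The 1 factor lower at like depth, TFAP2C, became 0 with ribosomal protein and mitochondrial genes left out of the denominator, with nuclei from 2000 UMIs and with sums thinned to 4000 UMIs. The share of nuclei with 3 or more factors, 31.8% in the blastoid and 17.9% in the blastocyst, moved to 6.17% and 8.76% with barcodes from 2000 UMIs thinned to 2000, 54.4% and 30.9% with nuclei from 8000 UMIs thinned to 8000, 55.6% and 30.5% unthinned, and 4.55% and 2.18% with at least 2 UMIs per factor. Joint detection of GATA2 and GATA3, 16.8% and 12.9%, moved in the same settings to 3.60% and 7.44%, to 37.1% and 24.2%, to 45.8% and 24.4%, and to 3.50% and 3.63%. The settings at 2000 and 8000 UMIs changed the set of barcodes and the thinning together. So the order of the sources in both shares turned in the setting at 2000 UMIs, and that of joint detection also with at least 2 UMIs and, at 14.9% and 15.4%, with doublet scores not used. Of 72 alternative ratios of single factors between trophectoderm-like clusters 7 moved, of 71 at like depth 2 did, and of 54 over whole libraries 5 did. Of the alternative detection shares of single factors 60 moved and 60 did not. The blastocyst trophectoderm-like class held 362 barcodes, and 233 or 235 with a mitochondrial limit of 5% or at resolution 1.0, where the shallow cluster was not named. When only nuclei of at least 4000 UMIs were clustered, the class held 99 blastoid and 228 blastocyst nuclei. Depth limits ELF5, DLX3, DLX5 and HAND1 most, with at most 64 UMIs in any sum. No paired analysis was possible because each group has 1 library and no result comes from a test.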
